A study of Mus musculus with 8 samples.

Results

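Thyroid and glucocorticoid hormone signalling in the neonatal mouse heart was followed through 9 genes: Thra and Thrb (thyroid hormone receptors), Dio2 and Dio3 (deiodinases), Nr3c1 and Nr3c2 (glucocorticoid and mineralocorticoid receptors), Hsd11b1 (an enzyme that regenerates active glucocorticoid), and the hormone targets Fkbp5 and Klf9. The genes were named for their role in the hormone pathways, by a rule that uses no measured value, though with earlier results of these data known, and each was matched to 1 of the 39614 annotated loci in the deposited tables. RNA-seq was made from whole hearts, without the atrial appendages, of 4 male Hsd:ICR(CD-1) mice at postnatal day 1 (P1) and 4 at postnatal day 7 (P7). No heart was treated or carried an introduced allele, so the stages differ in age alone as far as the labels say. Each library came from 1 heart and was sequenced from total RNA after removal of ribosomal RNA. Levels are FPKM (fragments scaled by transcript length and by the mapped fragments of the library), so they can be compared between genes.

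Thyroid hormone reaches cells mainly as the prohormone thyroxine. The deiodinase encoded by Dio2 turns it into active triiodothyronine, and the one encoded by Dio3 inactivates both forms. The receptors sit on DNA as partners of the retinoid X receptors, with corepressors when no hormone is bound and with coactivators when it is. In rodents circulating thyroid hormone rises in the first weeks after birth, when the heart changes its myosin, its calcium handling and its pacemaker currents. Glucocorticoid enters cells freely, binds a receptor held by heat shock proteins and immunophilins such as the products of Fkbp4 and Fkbp5, and switches on target genes in the nucleus. The mineralocorticoid receptor binds the same hormone in cells that lack the inactivating enzyme encoded by Hsd11b2.

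Promoter sequences of 3 members are shown because these genes are a hormone receptor and a pair of well known hormone targets, whose proximal promoters show the letters that either receptor could meet. The windows are RefSeq sequences of GRCm38.p6, from 250 bases before to 50 bases after a transcript start, written 5′ to 3′ on the gene's strand. Capitals mark AGGTCA, the half-site bound by thyroid hormone receptors, or TGTTCT, a half-site of the glucocorticoid response element, on either strand. Thrb has a pair of windows, at chr14:17660710-17661009 and chr14:17981394-17981693, both on the plus strand. The Fkbp5 window is chr17:28486100-28486399 on the minus strand and the Klf9 window is chr19:23140976-23141275 on the plus strand.
Thrb, first start: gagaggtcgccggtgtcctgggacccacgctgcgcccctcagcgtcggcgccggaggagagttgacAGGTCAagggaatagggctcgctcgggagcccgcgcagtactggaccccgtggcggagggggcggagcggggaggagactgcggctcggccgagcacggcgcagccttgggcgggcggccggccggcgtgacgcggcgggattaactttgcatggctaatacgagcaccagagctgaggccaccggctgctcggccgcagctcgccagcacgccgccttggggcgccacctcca
Thrb, second start: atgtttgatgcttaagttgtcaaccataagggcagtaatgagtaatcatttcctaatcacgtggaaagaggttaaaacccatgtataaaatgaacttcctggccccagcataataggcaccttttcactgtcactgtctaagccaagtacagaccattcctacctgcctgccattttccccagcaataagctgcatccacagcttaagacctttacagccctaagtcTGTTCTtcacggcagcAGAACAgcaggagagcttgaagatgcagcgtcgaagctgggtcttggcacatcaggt
Fkbp5: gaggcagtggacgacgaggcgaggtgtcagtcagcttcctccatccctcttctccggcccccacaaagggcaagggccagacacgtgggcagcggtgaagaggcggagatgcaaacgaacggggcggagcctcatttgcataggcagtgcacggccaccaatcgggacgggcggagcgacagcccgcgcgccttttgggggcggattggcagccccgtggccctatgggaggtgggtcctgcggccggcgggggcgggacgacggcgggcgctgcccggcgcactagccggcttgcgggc
Klf9: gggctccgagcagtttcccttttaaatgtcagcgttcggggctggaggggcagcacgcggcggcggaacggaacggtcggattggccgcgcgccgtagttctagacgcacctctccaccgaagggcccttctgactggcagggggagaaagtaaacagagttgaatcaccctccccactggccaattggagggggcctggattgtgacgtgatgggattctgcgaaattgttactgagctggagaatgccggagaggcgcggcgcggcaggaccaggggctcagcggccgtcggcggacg

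The first Thrb window held 1 AGGTCA, beginning at base 67 of the window, and the second held 2 TGTTCT, of which the first began at base 228. Among 32851 RefSeq promoter windows, 16.3% held AGGTCA and 19.0% held TGTTCT. The windows of Fkbp5 and Klf9 held neither, nor did those of Dio2, Dio3, Nr3c2 and Hsd11b1, which are not printed. No printed window held the whole glucocorticoid response element GNACANNNTGTNC, found in 0.475% of all windows, or the direct repeat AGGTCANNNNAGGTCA, found in 0.0152%. The first Thrb window and those of Fkbp5 and Klf9 were GC-rich at 72.7%, 70.7% and 63.3%, against 46.0% in the second Thrb window and a median of 52.7% over all windows. These matches describe letters in a short window only.

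The loci were compared between P7 and P1 with limma on log2(FPKM + 1), over loci that reached 1 FPKM in 1 or more hearts. A gene was called when its Benjamini-Hochberg adjusted p over all tested loci was below 0.05 and its mean FPKM differed at least 1.5-fold. Of 17960 annotated loci tested, 7.74% were called higher and 0.401% lower in P7. In 17.3% every P7 heart lay above every P1 heart, and in 2.69% every P7 heart lay below. The median log2FC (log2 fold change, P7 against P1) of annotated loci was 0.19 on the deposited values and 0.0021 after median-ratio scaling of the hearts. The calls then split into 1388 higher and 621 lower, against 1390 higher and 72 lower on the deposited values. Median ratios of the hearts ran from 0.801 to 1.27. The files give no counts. The FPKM step worth 1 fragment, estimated from low loci, ran from 1.00 to 1.62 times that of P1 replicate 1. Cardiomyocyte markers were abundant, with Myh6 at 3645 ± 1290 FPKM in P1 and 4407 ± 856 FPKM at P7 (SD, n = 4 each). Markers of the adrenal cortex summed to at most 0.257 FPKM in any heart.

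Of the 9 members, 7 passed the filter on low values and 1, Thra, was called, with the higher level at P7. Over all annotated loci tested, 7.74% were called higher. At an unadjusted limma p below 0.05 there were 3 members. The median log2FC of the 7 was 0.38, beside 0.19 for all annotated loci tested, and 0.24 beside 0.0021 after median-ratio scaling. The members spanned over 3 orders of magnitude in level. At P7 the mean FPKM fell in the order Thra, Nr3c1, Klf9, Nr3c2, Fkbp5, Thrb, Dio2, Hsd11b1 and Dio3. In that order the ranges of Thra and Nr3c1 did not overlap, while those of Nr3c1 and Klf9, of Fkbp5 and Thrb, and of Thrb and Dio2 did. At P1 the ranges of Thra and Nr3c1 overlapped as well, and Fkbp5 at 3.76 ± 0.817 FPKM and Nr3c2 at 3.63 ± 1.12 FPKM were indistinguishable. In P1, replicate 4 was the highest heart for all 7 tested members. It was also the highest P1 heart for 64.4% of all annotated loci tested, and after scaling for 35.6% of them and for 6 of the 7 members.

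**Figure D1:**
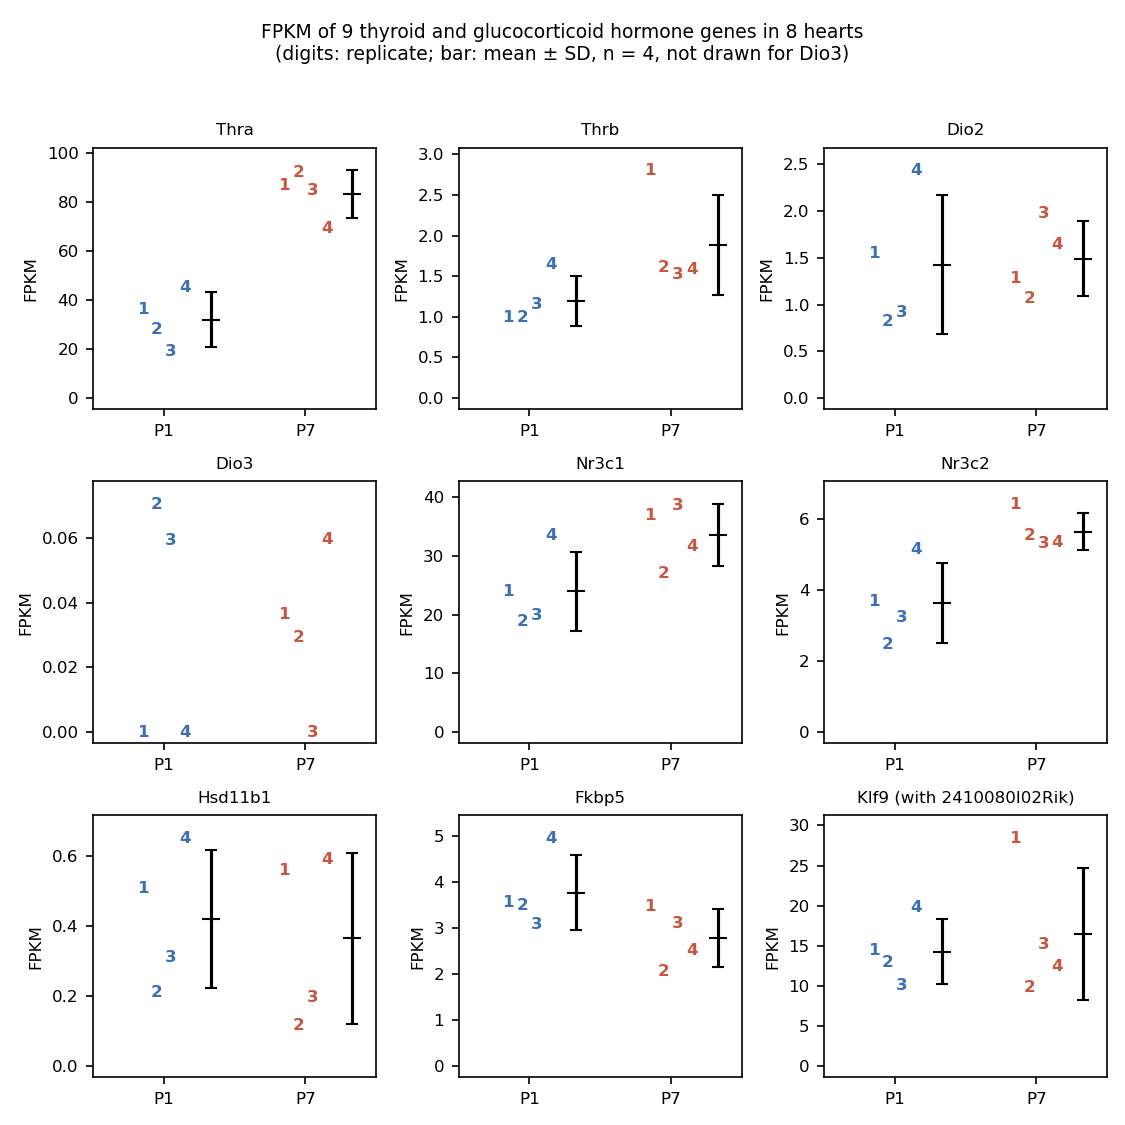
FPKM (vertical axes, different for each gene) of the 9 genes in P1 and P7 hearts, with each heart drawn as its replicate number and the mean ± SD (n = 4) as a bar, left out for Dio3, which is listed at 0 in 3 hearts. Thra lies between 18.9 and 45.2 FPKM at P1 and between 69.3 and 92.0 FPKM at P7.

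Thra, the gene of thyroid hormone receptor alpha (chr11:98740638-98775333, GRCm38, plus strand), was the most abundant member and rose 2.60-fold. P1 replicates 1 to 4 held 36.0, 27.9, 18.9 and 45.2 FPKM, and the P7 replicates held 86.5, 92.0, 84.8 and 69.3 FPKM. Every P7 heart lay above every P1 heart. The means were 32.0 ± 11.2 FPKM and 83.1 ± 9.75 FPKM (SD, n = 4 each), a log2FC of 1.41 (SE 0.25, limma adjusted p = 0.0145). An exact two-sided permutation test over the 70 assignments of hearts gave p = 0.0286, the smallest it can give. After median-ratio scaling the log2FC was 1.17 (limma adjusted p = 0.00822). A correction for transcript GC content, added after seeing the data, brought it to 0.97 (adjusted p = 0.0733), which ends the call, as did leaving out P1 replicate 2 (log2FC 1.37, adjusted p = 0.0571).

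The Thra locus overlaps Nr1d1, the gene of the clock repressor REV-ERBα, on the opposite strand. Both genes share 263 exonic bases, 5.70% of the exonic bases of Thra and 8.55% of those of Nr1d1, and the deposited span of the locus covers both genes. Use of strand in the counting is not given in the sources used here, so reads of the shared bases cannot be assigned. Nr1d1 measured 4.28, 3.40, 2.35 and 5.32 FPKM in P1 replicates 1 to 4 and 8.46, 7.59, 6.91 and 6.73 FPKM in the P7 replicates, a log2FC of 0.84 (SE 0.21, adjusted p = 0.0496). The log2 ratio of Thra to Nr1d1 within a heart rose from 2.74 ± 0.13 to 3.32 ± 0.14 (SD, n = 4 each), with no overlap (exact two-sided permutation p = 0.0286). The FPKM of the locus does not separate the splice forms of Thra, of which 1 does not bind hormone.

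The means of all 5 fibroblast markers were higher at P7, as was that of Thra. All 4 endothelial, 4 smooth muscle and pericyte, 4 macrophage, 3 epicardium and 3 red cell markers also had a log2FC above 0. So did 5 of 6 cardiomyocyte markers, beside 67.6% of all annotated loci tested. Of the 5 fibroblast markers 4 (Col1a1, Dcn, Lum and Tcf21) were called higher in P7, beside 7.74% of all annotated loci tested. The summed level of the 5 ran from 343 to 570 FPKM in P1 and from 812 to 982 FPKM in P7, with none of them at 0. Of 4 endothelial markers 2 (Cdh5 and Tie1) were called higher, with sums of 50.7 to 100.3 FPKM in P1 and 94.5 to 146 FPKM in P7. Neither was called after the GC correction (adjusted p = 0.0793 and 0.106), against 3 of the 5 fibroblast markers. Of 4 smooth muscle and pericyte markers Pdgfrb was called higher (log2FC 1.20, limma adjusted p = 0.0379; 0.124 after the GC correction), with sums of 49.7 to 105 FPKM in P1 and 86.4 to 163 FPKM in P7. None of the 6 cardiomyocyte markers was called by limma, with 3 at an unadjusted p below 0.05 (sums of 4429 to 10365 FPKM and 7761 to 12224 FPKM). The part of these cells in the Thra difference was not tested. In whole hearts fewer cells of a type and less RNA per cell cannot be told apart.

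Thrb, the gene of thyroid hormone receptor beta (chr14:17659773-18038367, plus strand), stood far below Thra. It measured 0.998, 0.994, 1.16 and 1.64 FPKM in P1 replicates 1 to 4 and 2.81, 1.60, 1.53 and 1.59 FPKM in the P7 replicates. Of the P7 hearts, 3 fell within the range of P1 and replicate 1 stood above all others. The log2FC of 0.38 (SE 0.20, limma adjusted p = 0.336) was not called. The 2 receptor genes were therefore compared within each heart. The log2 ratio of Thra to Thrb, each with 1 FPKM added, was 4.21, 3.86, 3.21 and 4.13 in the P1 hearts and 4.52, 5.16, 5.09 and 4.76 in the P7 hearts. The difference was 1.03 with no overlap (exact two-sided permutation p = 0.0286). With 0.1 FPKM added the difference was 0.84 and the exact permutation p was 0.0571. With nothing added the ratios of FPKM overlapped, at 16.4 to 36.1 in P1 and 30.8 to 57.3 in P7.

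**Figure D2:**
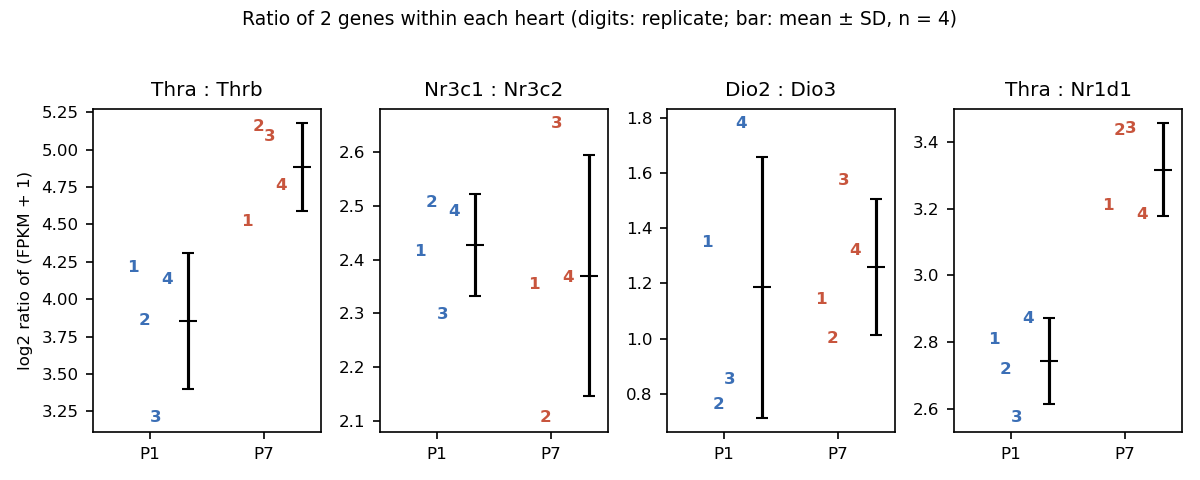
Log2 ratio of (FPKM + 1) of the 2 named genes (vertical axes, different for each pair) within each P1 and P7 heart, drawn as its replicate number, with the mean ± SD (n = 4) as a bar. The ratio of Thra to Thrb and of Thra to Nr1d1 did not overlap and was higher in P7, while the ratios of Nr3c1 to Nr3c2 and of Dio2 to Dio3 overlapped.

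Dio2 and Dio3, the activating and inactivating deiodinases, were both near the lower limit. Dio2 (chr12:90724554-90750693, minus strand) held 1.55, 0.816, 0.912 and 2.44 FPKM in P1 replicates 1 to 4 and 1.28, 1.06, 1.98 and 1.65 FPKM in the P7 replicates, with the P7 range inside that of P1. Its log2FC was 0.072 (SE 0.24, limma adjusted p = 0.866). Dio2 shares 100 exonic bases, 1.72% of its own, with Gm26512 on the opposite strand. Dio3 (chr12:110279068-110281097, plus strand) was listed at 0 in P1 replicates 1 and 4 and in P7 replicate 3, and reached at most 0.0705 FPKM in the others. If the smallest of these values is worth 1 fragment, both stages held 4 Dio3 fragments over their 4 hearts, so no difference was detectable at this depth. The log2 ratio of Dio2 to Dio3 differed by 0.073 (exact two-sided permutation p = 0.771). Dio2 is also active in brown fat. Of 3 brown fat markers, Ucp1 reached 3.08 and 10.3 FPKM in P7 replicates 2 and 4. Cidea held 12.2 ± 3.11 FPKM in P1 and 22.8 ± 1.73 FPKM at P7 (SD, n = 4 each). It was called higher (limma adjusted p = 0.0348; 0.156 after the GC correction). Elovl3 reached at most 0.0766 FPKM in any heart. Among the P7 hearts Dio2 was lowest in replicate 2, and in replicate 4 it lay between the others. The part of brown fat in the Dio2 values was not tested.

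Nr3c1, the glucocorticoid receptor gene, was the second most abundant member. P1 replicates 1 to 4 held 23.9, 18.8, 19.8 and 33.5 FPKM and the P7 replicates held 36.9, 27.1, 38.7 and 31.6 FPKM. The ranges overlapped through P1 replicate 4, and the log2FC of 0.49 (SE 0.22, limma adjusted p = 0.251) was not called. Nr3c2, the mineralocorticoid receptor gene (chr8:76605226-77245065, plus strand), held 3.67, 2.48, 3.24 and 5.14 FPKM in P1 and 6.41, 5.53, 5.31 and 5.33 FPKM in P7. Nr3c2 shares 247 exonic bases, 3.8% of its own, with Gm10649 on the opposite strand, and reads of those bases cannot be assigned. Every P7 heart lay above every P1 heart, the closest pair being P1 replicate 4 and P7 replicate 3. Its log2FC was 0.55 (SE 0.20, limma adjusted p = 0.170; exact two-sided permutation p = 0.0286), not called over all loci. It passed with sample quality weights (log2FC 0.68, adjusted p = 0.0354) and without P1 replicate 4 (0.69, adjusted p = 0.0362), and after median-ratio scaling the groups overlapped. The log2 ratio of Nr3c1 to Nr3c2 was 2.43 ± 0.095 in P1 and 2.37 ± 0.22 at P7 (SD, n = 4 each), a difference of -0.057 (exact two-sided permutation p = 0.686).

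Hsd11b1 (chr1:193203039-193264054, minus strand), whose product regenerates active glucocorticoid, stayed under the filter of 1 FPKM in all 8 hearts and was not tested. It held 0.508, 0.211, 0.311 and 0.651 FPKM in P1 replicates 1 to 4 and 0.558, 0.116, 0.197 and 0.589 FPKM in the P7 replicates, with overlapping groups. Its opposite, Hsd11b2, reached at most 0.226 FPKM. H6pd, which supplies the cofactor of the Hsd11b1 product, held 4.89 ± 1.72 FPKM in P1 and 8.51 ± 1.30 FPKM at P7 (SD, n = 4 each) and was not called (adjusted p = 0.0946). It passed after median-ratio scaling (limma adjusted p = 0.0439), with sample quality weights, without P1 replicate 4 and with the filter applied to every heart.

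Fkbp5 (chr17:28398163-28517524, minus strand), a glucocorticoid-induced immunophilin that lowers the affinity of the receptor for hormone, was the only tested member with a negative log2FC. It held 3.55, 3.49, 3.07 and 4.95 FPKM in P1 replicates 1 to 4 and 3.46, 2.06, 3.10 and 2.50 FPKM in the P7 replicates. The groups overlapped on the deposited values, with a log2FC of -0.33 (SE 0.20, limma adjusted p = 0.378). After median-ratio scaling every P7 heart, at 2.18 to 2.94, lay below every P1 heart, at 3.73 to 4.26 scaled FPKM. Under that scaling Fkbp5 was called lower (log2FC -0.52, adjusted p = 0.0420), with the median of all annotated loci at 0.0021. No other setting called it.

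Klf9, a transcription factor gene induced by both hormones, shares its deposited locus with 2410080I02Rik (chr19:23134900-23169256), so its values may hold reads of either gene. It held 14.4, 12.9, 10.0 and 19.7 FPKM in P1 replicates 1 to 4 and 28.4, 9.80, 15.2 and 12.4 FPKM in the P7 replicates. P7 replicate 1 stood above all other hearts, and the other 3 P7 hearts lay within or just below the P1 range. The log2FC was 0.12 (SE 0.30, limma adjusted p = 0.812). Without P7 replicate 1 it was -0.16, and after median-ratio scaling -0.10, so no direction was set by these hearts.

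**Figure D3:**
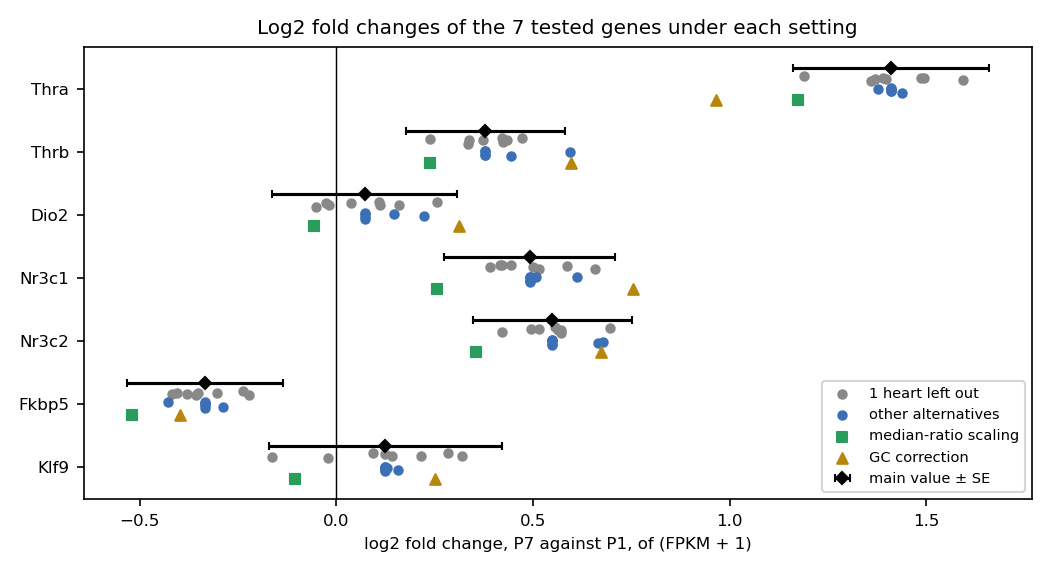
Log2FC (horizontal axis, P7 against P1, of FPKM + 1) of the 7 tested members under each setting. Diamonds are the main value ± SE, grey dots the fits with 1 heart left out, squares median-ratio scaling with and without the replicate block, triangles the GC correction and blue dots the other alternatives. Thra stays at 0.97 or above, Fkbp5 stays below 0, and Dio2 and Klf9 fall on both sides of 0.

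The other genes of these pathways were taken from 8 lists that hold 94 genes, of which 82 were tested. Of these 17 (20.7%) were called, all higher in P7 on the deposited values, beside 7.74% called higher over all annotated loci tested. The median log2FC of the 82 was 0.45, with 71 above 0, beside a median of 0.19 and 67.6% above 0 over all annotated loci tested. Leaving out a heart changed the count widely, from 2 without P1 replicate 2 to 24 without P1 replicate 4. After the GC correction 6 were called. Calls over all annotated loci moved as well, to 167 and 2835 without the same hearts and to 408 after the GC correction. After median-ratio scaling 19 pathway genes were called, of which 2 were lower. Setting aside the GC correction and median-ratio scaling with the replicate block, 5 of the 17 were called under each alternative on all 8 hearts. These were Kcna5, Ddit4, Glul, Klf2 and Klf4. Rxrg, Hcn2 and Ucp3 missed only the filter of 1 FPKM in every heart, under which they were not tested. With 1 heart left out, Kcna5 kept its call in 6 fits, Ddit4 in 5, Glul in 4 and Klf2 and Klf4 in 7 each.

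In the list of thyroid hormone transport and conversion 3 of 8 genes were tested and none was called by limma, with 1 at an unadjusted p below 0.05. The median log2FC was 0.018. Slc3a2, a subunit of amino acid transporters that also carry thyroid hormone, had the largest positive log2FC (0.45, limma adjusted p = 0.236) and Ttr, a plasma carrier, the largest negative (-0.086, adjusted p = 0.896). Dio1 was listed at 0 in all 4 P7 hearts and reached at most 0.264 FPKM in P1.

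Among 14 receptor partners and coregulators 3 were called higher, beside 7.74% of all annotated loci tested. The list median log2FC was 0.35. Rxrg, a retinoid X receptor that pairs with thyroid hormone receptors, held 0.714, 0.253, 0.226 and 0.747 FPKM in P1 and 4.05, 3.86, 7.54 and 4.56 FPKM in P7. It rose from below 1 FPKM in every P1 heart to above 3 FPKM in every P7 heart (log2FC 2.00, SE 0.23, limma adjusted p = 0.00265), and it was called under every setting that tested it. Rxra rose from 7.23 ± 2.90 to 15.9 ± 1.98 FPKM (SD, n = 4 each; adjusted p = 0.0287). Gps2, a subunit of the corepressor complex whose locus is shared with Neurl4, rose from 16.1 ± 7.37 to 35.9 ± 3.13 FPKM (adjusted p = 0.0324). Ncor1, a corepressor gene, had a log2FC of 0.027 (adjusted p = 0.931). Tbl1x had the lowest value of the list at -0.11 (adjusted p = 0.768). Rxra and Gps2 were not called after the GC correction, and the count ran from 1 (without P1 replicate 2, P1 replicate 3, P7 replicate 1 or P7 replicate 3) to 4 (without P1 replicate 4) with a heart left out.

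Of 13 genes known to be raised by thyroid hormone, in heart or other tissues, 5 were called higher, beside 7.74% of all annotated loci tested. In 8 every P7 heart lay above every P1 heart, beside 17.3% of all annotated loci tested. The list median was 0.53. Hcn2, a pacemaker channel gene, held 0.801, 1.14, 0.627 and 1.02 FPKM in P1 and 4.63, 3.57, 6.22 and 3.45 FPKM in P7 (log2FC 1.51, SE 0.21, limma adjusted p = 0.00568). Ucp3, a mitochondrial carrier gene, rose from 2.02 ± 1.39 to 6.72 ± 0.827 FPKM (adjusted p = 0.0185). Kcna5, a potassium channel gene, rose from 5.17 ± 1.08 to 13.0 ± 2.62 FPKM (adjusted p = 0.0142). The glucose transporter gene Slc2a4 rose 2.02-fold and the beta-adrenergic receptor gene Adrb1 1.71-fold. Adrb1 was called in 5 of the 18 alternatives and not after median-ratio scaling (adjusted p = 0.143). The classical targets Myh6, the fast cardiac myosin (log2FC 0.31, adjusted p = 0.538), and Atp2a2, the calcium pump of the sarcoplasmic reticulum (0.36, adjusted p = 0.410), were not called. The groups overlapped for Myh6. For Atp2a2 every P7 heart lay above every P1 heart (exact two-sided permutation p = 0.0286), with a log2FC of 0.12 after median-ratio scaling. Atp1b1 had the lowest log2FC, -0.38 (adjusted p = 0.404). Of the 5, Kcna5 and Ucp3 were also called after the GC correction. With a heart left out the count ran from 1 (without P1 replicate 2 or P7 replicate 1) to 6 (without P1 replicate 4).

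Of 5 cardiac genes known to be lowered by thyroid hormone none was called by limma on the deposited values, and 1 had an unadjusted p below 0.05. Over all annotated loci tested, 7.74% were called higher and 0.401% lower. In 4 of the 5 the log2FC was above 0, beside 67.6% of all annotated loci tested. The list median was 0.38, with 0.14 after median-ratio scaling and -0.034 after the GC correction. Slc8a1, the sodium-calcium exchanger, held 415, 444, 394 and 708 FPKM in P1 and 237, 196, 387 and 290 FPKM in P7. Every P7 heart lay below every P1 heart, with a log2FC of -0.82 (SE 0.27, limma adjusted p = 0.116). It was called lower after median-ratio scaling (adjusted p = 0.0126) and, on the deposited values, when only loci with 1 FPKM or more in every heart were tested. Myh7, the slow cardiac myosin, held 134, 125, 97.4 and 372 FPKM in P1 and 245, 255, 137 and 149 FPKM in P7 (adjusted p = 0.677), with overlapping groups and P1 replicate 4 the highest heart. Adcy6 had the highest log2FC of the list at 0.53 (adjusted p = 0.315).

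Of 10 tested genes for corticosteroid receptor chaperones and steroid conversion none was called by limma on the deposited values, with 4 at an unadjusted p below 0.05 and a median log2FC of 0.24. Fkbp4, an immunophilin that opposes Fkbp5 on the receptor, held 41.7, 36.0, 21.3 and 77.6 FPKM in P1 and 52.7, 65.4, 120 and 86.6 FPKM in P7, with overlapping groups (log2FC 0.94, SE 0.35, limma adjusted p = 0.175). On the deposited values 3 of the 10 (Fkbp4, Ppp5c and H6pd) were called higher with the filter applied to every heart, and 2 (Fkbp4 and H6pd) with sample quality weights or without P1 replicate 4. Hsp90aa1, the inducible form of the receptor chaperone, had the lowest log2FC (-0.59, adjusted p = 0.176) and was called lower after median-ratio scaling (adjusted p = 0.00934). Neither of the 2 tested genes linked to mineralocorticoid and sodium transport was called, with 1 at an unadjusted p below 0.05. Ndrg2 had a log2FC of 0.86 (adjusted p = 0.0969), called after median-ratio scaling (adjusted p = 0.0403) and with sample quality weights, without P1 replicate 4 and with the filter applied to every heart, and Nedd4l one of 0.41 (adjusted p = 0.391).

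**Figure D4:**
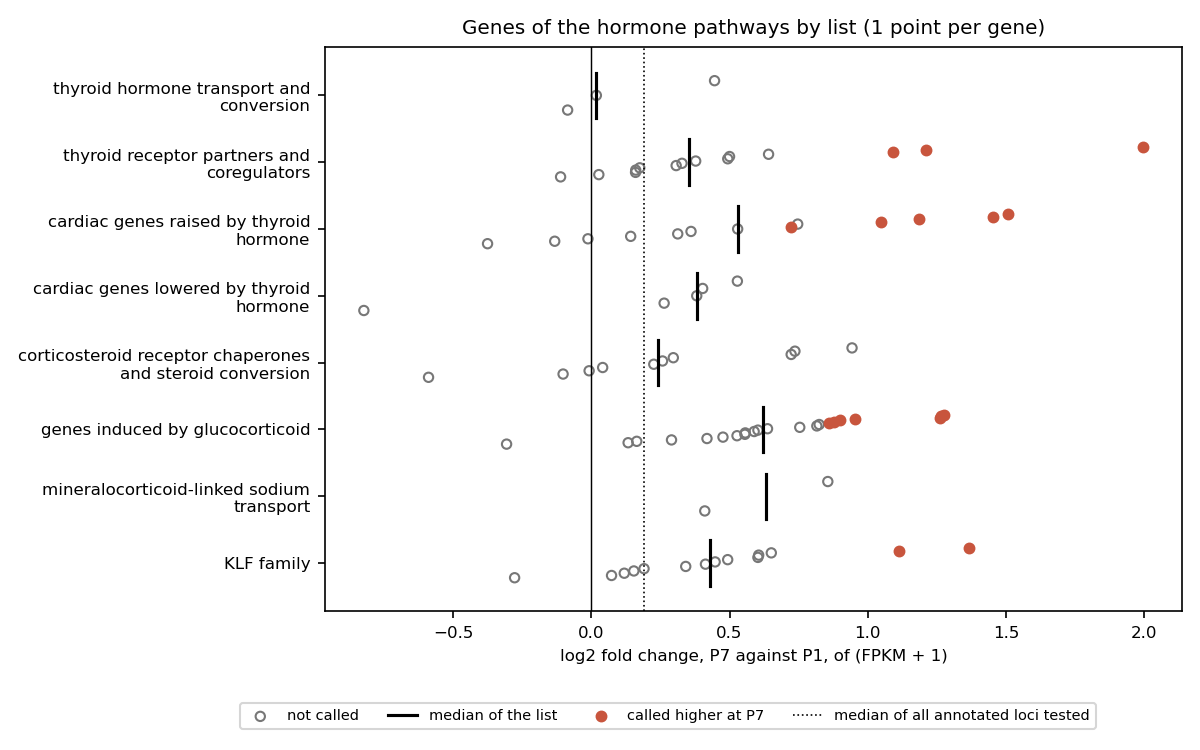
Log2FC (horizontal axis, P7 against P1, of FPKM + 1) of each tested pathway gene by list, with called genes filled, the list median as a bar and the median of all annotated loci tested, 0.19, as a dotted line. The lists with called genes are receptor partners, genes raised by thyroid hormone (drawn as cardiac genes), genes induced by glucocorticoid and the KLF family.

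Of 22 tested genes induced by glucocorticoid 7 were called higher, beside 7.74% of all annotated loci tested. In 21 the log2FC was above 0 (67.6% of all annotated loci tested), and in 10 every P7 heart lay above every P1 heart (17.3%). The list median was 0.62, and 0.42 after median-ratio scaling. Ddit4, an inhibitor of mTOR signalling, rose from 3.72 ± 1.19 to 10.4 ± 2.91 FPKM (SD, n = 4 each; log2FC 1.28, limma adjusted p = 0.0184). Pdk4, a kinase that restrains glucose oxidation, rose from 39.6 ± 12.1 to 96.9 ± 28.2 FPKM (adjusted p = 0.0271), and Glul, glutamine synthetase, from 26.4 ± 6.07 to 65.4 ± 19.5 FPKM (adjusted p = 0.0197). The others called were Dusp1 (2.08-fold), Cdkn1a (2.05-fold), Nfkbia (1.92-fold) and Bcl6 (3.73-fold). Tsc22d3, which encodes the glucocorticoid-induced leucine zipper, went from 45.4 ± 5.33 to 82.1 ± 21.2 FPKM and missed the threshold (adjusted p = 0.0517). Anxa1 had the lowest log2FC, -0.31 (adjusted p = 0.533). Cdkn1a was called in only 2 of the 18 alternatives, and not after median-ratio scaling (adjusted p = 0.140) or with any heart left out. Nfkbia was called in 6, Bcl6 in 7 and Dusp1 in 8 of the 18. None of the 22 was called without P1 replicate 2, without P1 replicate 3 or without P7 replicate 1 (10, 10 and 11 at an unadjusted limma p below 0.05), and 2 were called after the GC correction.

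The glucocorticoid-induced genes differed among the P7 hearts. P7 replicate 1 was the highest P7 heart for 15 of the 22 (68.2%), beside 33.1% of all annotated loci tested, and after median-ratio scaling for 12 of the 22 (54.5%), beside 30.5%. Zbtb16, a transcription factor gene, held 22.8 FPKM in that heart and 2.11 to 4.44 FPKM in the other P7 hearts. Fbxo32, a muscle ubiquitin ligase gene, held 20.6 against 6.58 to 8.28 FPKM, Klf15 14.9 against 4.22 to 7.11 FPKM, and the metallothionein gene Mt2 83.6 against 26.1 to 48.2 FPKM. These 4 genes were at least 2 times the median of the other P7 hearts, as were 4.64% of annotated loci. Of the tested members in that heart, Klf9 was 2.28 times the median of the others, Thrb 1.77 times and Fkbp5 1.38 times. Nr3c2 was 1.20 times, Nr3c1 1.17 times, Thra 1.02 times and Dio2 0.78 times, beside a median of 1.09 over all annotated loci tested. The list did not move as a block. Angptl4 was lowest in that heart, at 6.57 FPKM against 14.1 to 19.1 FPKM. Sgk1, Dusp1, Cdkn1a and Anxa1 in that heart also lay below the median of the other P7 hearts. The genes and the heart were chosen after their values were seen, so the pattern is a description of 4 hearts without a test.

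**Figure D5:**
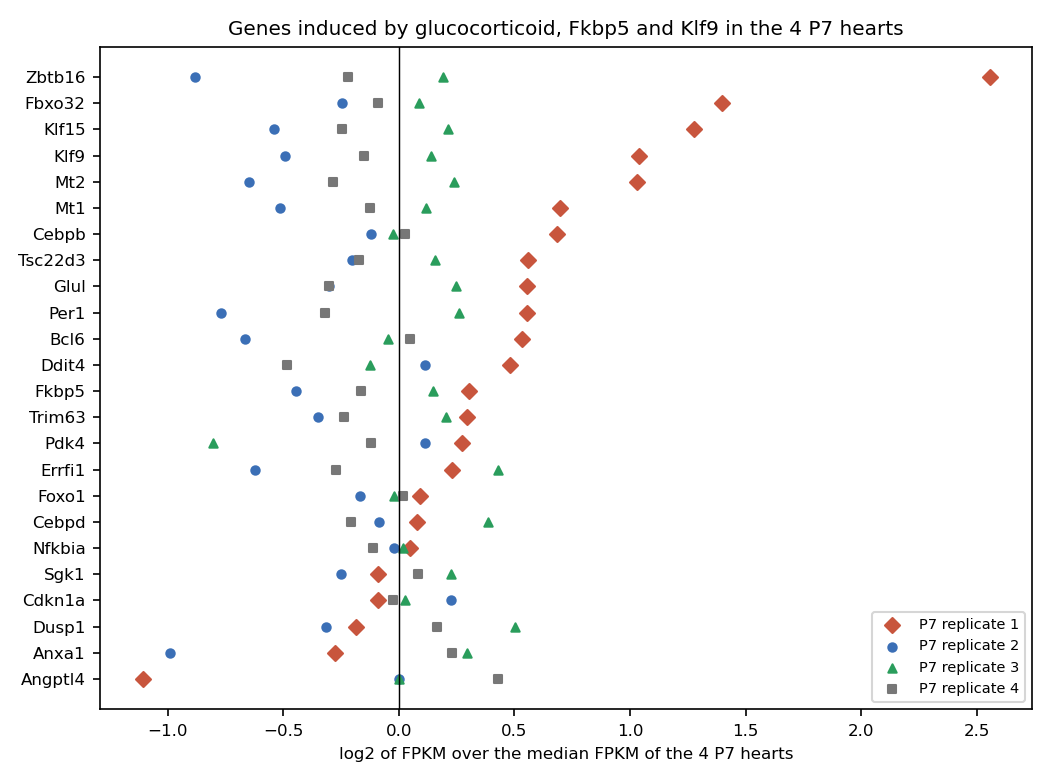
Log2 of the FPKM of each P7 heart over the median of the 4 P7 hearts (horizontal axis) for the 22 tested glucocorticoid-induced genes, Fkbp5 and Klf9, with 1 marker shape per heart. P7 replicate 1 stands to the right for Zbtb16, Fbxo32, Klf15, Klf9 and Mt2 and to the left for Angptl4.

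In the KLF family, the transcription factors to which Klf9 belongs, 2 of 14 tested genes were called higher, beside 7.74% of all annotated loci tested. Klf4 rose from 5.09 ± 1.70 to 14.3 ± 2.43 FPKM (SD, n = 4 each; log2FC 1.37, limma adjusted p = 0.0134) and Klf2 from 10.5 ± 0.931 to 24.0 ± 3.85 FPKM (log2FC 1.11, adjusted p = 0.0105). Both are known from endothelium. Of its 4 markers, Cdh5 and Tie1 were also called higher, though not after the GC correction. Pecam1 and Kdr were not called (limma adjusted p = 0.345 and 0.236). The part of endothelial cells in the Klf2 and Klf4 differences was not tested. Klf8 had the lowest log2FC, -0.28 (adjusted p = 0.486). Klf2 was not called after the GC correction (adjusted p = 0.118), and neither was called without P1 replicate 2. The list median of 0.43 stood above the 0.12 of Klf9.

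Loci most alike to each member over the 8 hearts were sought among 10357 annotated loci that carry 1 gene symbol held by no other locus and have 1 FPKM or more in every heart, by Pearson's r on log2(FPKM + 1). All values rest on the same 8 libraries and share their scaling, so they are descriptions. Thra was most like Traf4 (r = 0.996) and Ring1 (r = 0.995), Nr3c1 most like Wwp2 (r = 0.995) and Pcdh17 (r = 0.994), and Nr3c2 most like Ext2 (r = 0.986) and Nat9 (r = 0.978). Fkbp5 was most like Ccdc141 and Mtr (r = 0.992 for each), and Klf9 most like Ulk2 (r = 0.984) and Jmy (r = 0.978). Thrb was most like Acvr2b (r = 0.978) and A930001N09Rik (r = 0.975), and Dio2 most like Gm6485 (r = 0.984) and Trpc2 (r = 0.973). For the members near 0, Hsd11b1 was most like Gab3 (r = 0.904) and Gm16568 (r = 0.878), and Dio3 most like Kcnmb4 (r = 0.910) and 9930111J21Rik2 (r = 0.834).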

How the data were processed

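RNA-seq was analysed for 4 P1 and 4 P7 hearts, 1 library each, made by the authors from ribosomal-RNA-depleted total RNA with a stranded kit and sequenced as pairs. The deposited values are FPKM per locus, which the authors' provider made by alignment to GRCm38 with Ensembl 70 annotation. The aligner and the use of strand in counting are not given in the sources used here. The FPKM files give no counts, and of depth only the relative size of the smallest steps was used here. The 80155 loci of the 8 tables were joined by identifier, and the 43172 that reached 1 FPKM in 1 or more hearts were tested. The fit was limma 3.58.1 in R 4.3.3 (eBayes with trend) on log2(FPKM + 1), with Benjamini-Hochberg adjustment over all tested loci. Fold changes on this scale understate those of low genes. Genes were called at an adjusted p below 0.05 and a 1.5-fold difference of mean FPKM. Single values were compared by exact two-sided permutation over 70 assignments (scipy 1.17.1). The fit was also run on simulated data with independent noise at each locus. These held no scaling or GC effect shared within a heart, so the run says nothing on such effects.

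Gene names were split at commas and a symbol with several loci was given by its most abundant locus. The members and the gene lists were chosen with earlier results of these data known. The text names all members, every called pathway gene, the highest and lowest log2FC of each list, and the 2 most alike loci of each member, with other genes of the lists chosen after their values were seen. Slc7a5 matched no locus. Some genes of the lists are not reported here and were left out of every list count. The labels give separate hearts per sample but no litter, so p-values measure the spread between these hearts. Alternatives were a pseudocount of 0.1, other filters, median-ratio scaling, a replicate block, sample quality weights, eBayes without trend, summed loci and each heart left out. A GC correction (lowess span 0.3, GC of GENCODE M21 transcripts, known for 85.9% of annotated loci tested) and median-ratio scaling with the replicate block were added after seeing the data. Gene overlaps came from GENCODE M21 and promoters from RefSeq, GRCm38.p6.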

Additional observations from a re-analysis of the deposited data

Results flagged for a closer look

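A heart stood apart from the other 3 of its stage in 12 of 178 groups of 4 hearts looked at (members and pathway genes at each stage), where chance gives about 1 in 20, or 8.9. The measure is Dixon's ratio of the gap to the nearest heart over the whole range. P7 replicate 1 stood apart in 5, P1 replicate 4 in 4, P7 replicate 3 in 2 and P7 replicate 2 in 1.

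The only member among them was Thrb, at 2.81 FPKM in P7 replicate 1 against 1.53 to 1.60 FPKM in the others (ratio 0.940). The same heart stood apart for the glucocorticoid-induced genes Zbtb16 (22.8 against 2.11 to 4.44 FPKM, ratio 0.888), Fbxo32 (20.6 against 6.58 to 8.28 FPKM, ratio 0.878) and Cebpb (12.0 against 6.85 to 7.58 FPKM, ratio 0.858), and for Klf8 (0.432 against 0.260 to 0.267 FPKM, ratio 0.960). P1 replicate 4 was high for Myh7 (372 against 97.4 to 134 FPKM, ratio 0.867) and Slc8a1 (708 against 394 to 444 FPKM, ratio 0.840). It was low for Atp2a2 (1324 against 1908 to 2023 FPKM, ratio 0.836) and Cebpb (2.66 against 4.78 to 4.91 FPKM, ratio 0.942). P7 replicate 3 was high for Hr (1.96 against 0.908 to 1.04 FPKM, ratio 0.870) and Adcy5 (15.8 against 11.1 to 11.4 FPKM, ratio 0.950), and P7 replicate 2 was low for Me1 (22.4 against 26.5 to 27.3 FPKM, ratio 0.850).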

How the results depend on the processing

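Thra kept a positive log2FC in all 18 alternatives (0.97 to 1.59) and its call in 16. Thrb, Nr3c1 and Nr3c2 stayed above 0 and Fkbp5 below 0 wherever they were tested. Dio2 turned to -0.057 under median-ratio scaling with and without the replicate block, and to values from -0.052 to -0.018 without P1 replicate 2, P1 replicate 3 or P7 replicate 3 (range with 1 heart left out -0.052 to 0.25). Klf9 turned to -0.10 under median-ratio scaling with and without the block, to -0.021 without P1 replicate 3 and to -0.16 without P7 replicate 1 (range with 1 heart left out -0.16 to 0.32). The cause was not tested.

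Of all annotated loci 1462 were called, 620 with no filter, 2573 with 1 FPKM in every heart, 2951 with sample quality weights, 941 without trend, 408 after the GC correction, and 167 (without P1 replicate 2) to 2835 (without P1 replicate 4) with 1 heart left out. Member calls went from 1 to 2 under median-ratio scaling and sample quality weights, to 0 after the GC correction (4 at an unadjusted limma p below 0.05), and from 0 without P1 replicate 2 (1 at an unadjusted p below 0.05) to 2 with 1 heart left out. Pathway calls went from 17 to 8 with no filter, to 6 after the GC correction and to 2 to 24 with 1 heart left out, where fewer hearts also mean less power. The difference in the log2 ratio of Thra to Thrb was 0.84 with 0.1 FPKM added, and ran from 0.82 to 1.15 with 1 heart left out, where the smallest exact permutation p possible is 0.0571.

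The replicate numbers were fitted as a replicate block, which left Thra called (adjusted p = 0.0113), 1052 annotated loci and 12 pathway genes. Nothing in the labels ties equal numbers, and deviations of same-numbered hearts correlated between -0.10 and 0.12, against -0.16 to 0.10 for hearts of different number. Without counts the precision of genes below 1 FPKM, Dio3 and Hsd11b1 among them, is unknown.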
